A study of Mus musculus with 9 samples.

Results

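Hepatic stellate cells are read here through 10 genes, Lrat, Reln, Ecm1, Dcn, Des, Pdgfra, Pdgfrb, Rgs5, Acta2 and Tagln, each taken from the raw count table by its symbol. They are markers of the resting and the activated stellate cell, without collagens, and they are 10 of the 28956 entries of the table. All 10 were present as 1 entry each and all 10 passed the filter on low counts, which left 17582 genes. The samples were pieces of whole liver from C57BL6J mice aged 8 weeks, all of which had received APAP, the label's short form for acetaminophen, at 300 mg/kg intraperitoneally. APAP_MSC mice were also injected intravenously with 500000 cells labelled MSC 90 min after APAP, and APAP_HDF mice with 500000 cells labelled HDF at the same time, while APAP mice had no cell injection stated. MSC and HDF are not expanded in the labels, which give no passage, donor or species of the cells. Tissue was taken at 24 h per the series title, there were 3 libraries per group, and no liver without APAP was analysed here. The labels do not say that the libraries of a group came from separate animals, so the p-values reflect only how these samples varied, which may be technical.

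Stellate cells lie in the space between hepatocytes and the sinusoidal endothelium and store vitamin A as retinyl esters in lipid droplets. After liver injury they can lose these droplets, respond to platelet-derived growth factor and transforming growth factor beta, and take on a contractile, matrix-producing state marked by smooth muscle actin. They are also the liver's pericytes, and several of the genes above are shared with vascular smooth muscle cells and portal fibroblasts.

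The libraries held between 53267000 and 63176000 counts (5 digits kept), and levels are given as CPM, counts scaled to a common total with TMM-adjusted library sizes. A count of 0 allows 3 counts, or 0.0453 to 0.0567 CPM depending on the library, and these limits cover counting error only. The labels call the cell type hepatocytes and the material whole liver. The 7 hepatocyte markers summed to 118102 to 134600 CPM in APAP_MSC, 108308 to 141350 CPM in APAP_HDF and 113347 to 138377 CPM in APAP, and markers of endothelial cells, macrophages and cholangiocytes were also present, so the values are read as whole liver. The stellate cell genes summed to 256, 264 and 242 CPM in the APAP_MSC libraries, 336, 329 and 232 CPM in the APAP_HDF libraries and 414, 403 and 331 CPM in the APAP libraries. Ecm1 and Dcn together made up 53.5% to 68.5% of each of these sums. In RNA from a whole piece of liver, fewer stellate cells and less RNA per stellate cell cannot be told apart. Nor can either be told apart from a change in other liver cells that express these genes, Ecm1 and Dcn included. Libraries are numbered 1 to 3 by their columns, which only names them.

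In APAP_MSC against APAP, 3 of the 10 genes, Ecm1, Dcn and Pdgfra, fell and 0 rose (edgeR quasi-likelihood test, Benjamini-Hochberg adjusted p under 0.05 over all tested genes). Among all 17582 tested genes, 6.19% were called in this comparison, 3.51% as lower and 2.68% as higher. All 10 genes had a negative log2 fold change, with a median of -0.61, against a median of -0.01 over all tested genes, of which 51.1% were negative. In 4 of the 10 genes (Pdgfra, Rgs5, Ecm1 and Dcn) the 3 APAP_MSC libraries all lay below the 3 APAP libraries, as they did in 14.7% of tested genes.

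**Figure D1:**
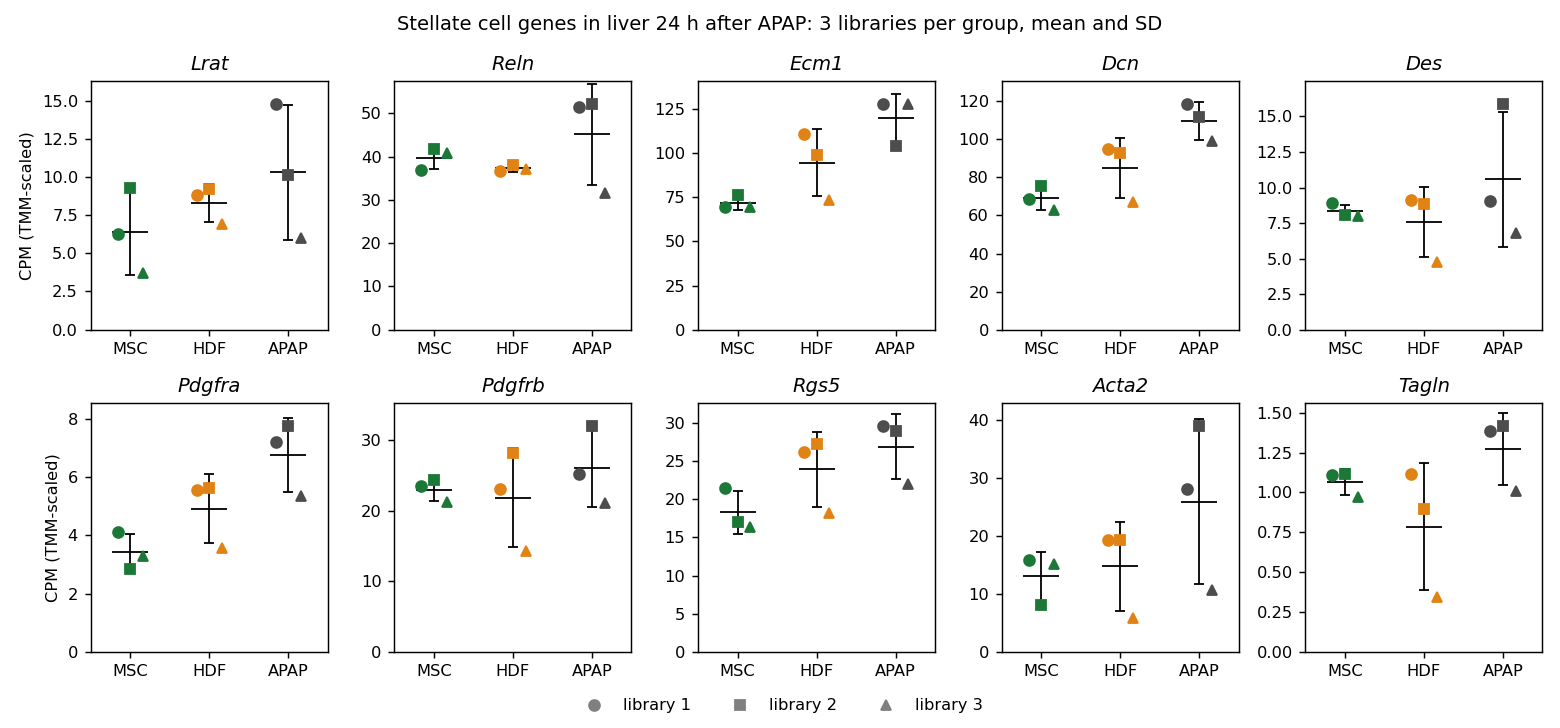
Levels of the 10 stellate cell genes in CPM (TMM-scaled, axes from 0) in each of the 9 libraries, for APAP_MSC (MSC), APAP_HDF (HDF) and APAP from left to right, with the mean and SD of 3 libraries as lines and the library number as the marker shape. The APAP_MSC points of Ecm1, Dcn, Pdgfra and Rgs5 all lie below the APAP points, and library 3 is the lowest of its group for 9 of 10 genes in APAP_HDF and in APAP.

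The first set of genes, Lrat, Reln, Ecm1, Dcn and Des, was grouped here as associated with the resting stellate cell. The grouping was not tested, and a fall in the set is not a measure of the resting state. Ecm1 encodes a secreted matrix glycoprotein, known in mouse liver for holding transforming growth factor beta in its latent form. It had 69.4, 76.1 and 69.8 CPM in APAP_MSC, 111, 98.9 and 73.8 CPM in APAP_HDF and 128, 104 and 128 CPM in APAP. Every APAP_MSC library was below every APAP library, while APAP_HDF library 3 lay inside the APAP_MSC range and its other libraries stood nearer to APAP. Ecm1 was 0.598 times as high in APAP_MSC as in APAP (log2 fold change -0.74 ± 0.14 SE, edgeR adjusted p = 0.0178). The call was lost without APAP_MSC library 1 (edgeR adjusted p = 0.0645), 2 (0.0860) or 3 (0.0663) and without APAP library 1 (0.0568), while the log2 fold change stayed between -0.82 and -0.67 in all 9 fits that each left out 1 library. The 250 bases before the annotated start of Ecm1, from the RefSeq promoter table (GRCm38.p6, chr3:95739570-95739819, minus strand, written 5′ to 3′), are shown because Ecm1 had the smallest p of the 10 genes, and capitals mark the single match to the TATA box letters TATANA.
Ecm1: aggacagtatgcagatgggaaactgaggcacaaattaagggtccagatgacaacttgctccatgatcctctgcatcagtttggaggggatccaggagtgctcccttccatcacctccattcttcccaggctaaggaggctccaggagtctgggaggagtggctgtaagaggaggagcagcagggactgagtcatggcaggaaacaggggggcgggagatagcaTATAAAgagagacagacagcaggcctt

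Dcn encodes decorin, a small leucine-rich proteoglycan of the matrix made by stellate cells and fibroblasts. Its levels were 68.7, 75.5 and 63.1 CPM in APAP_MSC, 94.8, 92.9 and 66.8 CPM in APAP_HDF and 119, 112 and 99.0 CPM in APAP. Both cell-injected groups lay wholly below the APAP libraries, and APAP_HDF library 3 again sat among the APAP_MSC values. Dcn was 0.630 times as high in APAP_MSC as in APAP (log2 fold change -0.67 ± 0.14 SE, edgeR adjusted p = 0.0217). This call was lost without APAP_MSC library 1 (edgeR adjusted p = 0.0727), 2 (0.0860) or 3 (0.0850) and without APAP library 1 (0.0683) or 2 (0.0572), with a log2 fold change of -0.74 to -0.59 over the 9 fits. Of the other 5 tested small leucine-rich proteoglycans of the related list, 0 were called by edgeR in any comparison. In each comparison 1 of them had an unadjusted p under 0.05. At that p were 22.6% of all tested genes in APAP_MSC against APAP, 8.29% in APAP_HDF against APAP and 25.5% in APAP_MSC against APAP_HDF. DESeq2 called Lum in APAP_MSC against APAP_HDF. The median log2 fold change of these 5 genes in APAP_MSC against APAP was -0.13.

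Lrat encodes the acyltransferase that esterifies retinol for storage and is among the most specific stellate cell markers of the liver. It measured 6.27, 9.31 and 3.68 CPM in APAP_MSC, 8.81, 9.23 and 6.90 CPM in APAP_HDF and 14.8, 10.2 and 5.98 CPM in APAP. The 3 groups overlapped, and the highest APAP library was 2.48 times the lowest. The log2 fold change in APAP_MSC against APAP was -0.68 ± 0.37 (edgeR adjusted p = 0.317), close in size to that of Dcn but with a larger SE.

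Reln encodes reelin, a secreted glycoprotein of stellate cells in liver that is better known for guiding neurons. Its levels were 36.8, 41.8 and 40.7 CPM in APAP_MSC, 36.7, 38.1 and 37.0 CPM in APAP_HDF and 51.5, 52.2 and 31.7 CPM in APAP. The cell-injected libraries lay in a narrow band, inside the wide range spanned by the APAP libraries, of which library 3 was the lowest of all 9. Its log2 fold change was -0.18 ± 0.16 in APAP_MSC against APAP (edgeR adjusted p = 0.564) and -0.28 ± 0.16 in APAP_HDF against APAP (0.662).

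Des encodes desmin, the intermediate filament of muscle and of rodent stellate cells. It stood at 8.88, 8.08 and 8.02 CPM in APAP_MSC, 9.16, 8.86 and 4.74 CPM in APAP_HDF and 9.04, 15.9 and 6.82 CPM in APAP. The groups overlapped, and APAP library 2 and APAP_HDF library 3 were the extremes. The log2 fold change of Des in APAP_MSC against APAP was -0.34 ± 0.31 (edgeR adjusted p = 0.580), and without APAP library 2 it was 0.08.

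The second set holds 2 receptors for platelet-derived growth factor and a regulator of G protein signalling. Pdgfra encodes the alpha receptor, carried by stellate cells and fibroblasts. Its levels were 4.12, 2.83 and 3.30 CPM in APAP_MSC, 5.57, 5.62 and 3.55 CPM in APAP_HDF and 7.21, 7.77 and 5.34 CPM in APAP. The APAP_MSC libraries were all below the APAP libraries, and APAP_HDF lay between them with overlap on both sides. Pdgfra was 0.505 times as high in APAP_MSC as in APAP (log2 fold change -0.99 ± 0.23 SE, edgeR adjusted p = 0.0329), on counts of 150 to 416 per library. The call was lost without APAP_MSC library 1 (edgeR adjusted p = 0.0599), 2 (0.163) or 3 (0.102) and without APAP library 1 (0.0890) or 2 (0.0931), and the log2 fold change ranged from -1.14 to -0.86. The 250 bases before the start of Pdgfra (RefSeq, GRCm38.p6, chr5:75152001-75152250, plus strand) are shown as those of the receptor that was called, and they carry no capitals because no CArG box, MCAT element or TATA box letters were found there.
Pdgfra: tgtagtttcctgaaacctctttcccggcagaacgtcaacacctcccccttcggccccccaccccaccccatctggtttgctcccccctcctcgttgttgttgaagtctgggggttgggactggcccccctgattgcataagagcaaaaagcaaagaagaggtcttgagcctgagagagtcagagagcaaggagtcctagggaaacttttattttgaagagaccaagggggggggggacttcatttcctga

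Pdgfrb encodes the beta receptor, the main mitogen receptor of the activated stellate cell. It had 23.4, 24.3 and 21.2 CPM in APAP_MSC, 23.0, 28.2 and 14.3 CPM in APAP_HDF and 25.2, 32.0 and 21.0 CPM in APAP. The 3 groups overlapped throughout. Its log2 fold change in APAP_MSC against APAP was -0.18 ± 0.23 (edgeR adjusted p = 0.700), and 0.00 without APAP library 2. Whether the alpha and the beta receptor differed in their fold change was not tested.

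Rgs5, a pericyte gene that shortens G protein signalling, had 21.4, 17.0 and 16.4 CPM in APAP_MSC, 26.3, 27.2 and 18.2 CPM in APAP_HDF and 29.6, 29.0 and 22.0 CPM in APAP. The APAP_MSC libraries were all below the APAP libraries, the closest pair being APAP_MSC library 1 and APAP library 3. The log2 fold change was -0.56 ± 0.18 and did not pass the test (edgeR adjusted p = 0.0844); DESeq2 called it at an adjusted p of 0.0468, the lowest of 15 alternatives, over which it reached 0.291.

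The third set is contractile. Acta2 encodes smooth muscle alpha actin, the usual marker of the activated stellate cell and of vascular smooth muscle. Its levels were 15.8, 8.16 and 15.1 CPM in APAP_MSC, 19.2, 19.2 and 5.90 CPM in APAP_HDF and 28.0, 39.0 and 10.7 CPM in APAP. Within APAP and APAP_HDF it spread most of the 10 genes, the highest APAP library being 3.63 times the lowest and the highest APAP_HDF library 3.26 times the lowest. APAP libraries 1 and 2 were above all others, yet APAP library 3 was below 4 of the 6 cell-injected libraries. The mean was 13.0 ± 4.23 CPM in APAP_MSC, 14.8 ± 7.69 CPM in APAP_HDF and 25.9 ± 14.2 CPM in APAP (SD, n = 3 each). The log2 fold change of -0.99 ± 0.55 in APAP_MSC against APAP was as large as that of Pdgfra and did not pass the test (edgeR adjusted p = 0.335). Counting may share reads with near-identical actin genes, of which Acta1, Actc1 and Actg2 had 0 to 14, 4 to 25 and 0 to 22 counts per library beside 326 to 2089 for Acta2.

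The 250 bases before the start of Acta2 (RefSeq, GRCm38.p6, chr19:34255374-34255623, minus strand) are shown because this promoter is a textbook target of serum response factor, which binds CArG boxes. Capitals mark, from left to right, an MCAT element (CATTCC on the other strand) and 2 CArG boxes that each hold 1 G or C in their core, at 84 to 75 and 34 to 25 bases before the start. No 2 of the marked stretches overlap. The strict CArG box was found in 1.47% of 32851 RefSeq promoters of this length, searched on both strands. It was found in 0 of the 7 stellate cell promoters searched, which did not include those of Pdgfrb, Tagln and Dcn. The box with at most 1 G or C in its core was found in 8.59% of promoters, CATTCC in 12.6%, TATANA in 22.6% and the E-box CANNTG in 66.2%. Among the 7 members searched, Lrat was the other one with a CArG box of the looser kind and a CATTCC. A match of letters is a description and not evidence of binding.
Acta2: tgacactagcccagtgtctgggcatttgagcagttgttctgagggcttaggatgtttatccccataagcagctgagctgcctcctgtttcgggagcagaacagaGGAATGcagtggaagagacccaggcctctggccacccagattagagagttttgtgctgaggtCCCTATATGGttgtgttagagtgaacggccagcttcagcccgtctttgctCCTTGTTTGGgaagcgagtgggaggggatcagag

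Tagln, which encodes the actin-binding protein transgelin, was the member with the fewest reads, at 60, 59 and 55 counts in APAP_MSC, 71, 55 and 19 in APAP_HDF and 77, 76 and 67 in APAP. In CPM these were 1.11, 1.11 and 0.969 in APAP_MSC, 1.12, 0.894 and 0.344 in APAP_HDF and 1.39, 1.42 and 1.01 in APAP. APAP_HDF library 3 stood far below the other 8 libraries, which lay between 0.894 and 1.42 CPM. The log2 fold change was -0.26 ± 0.37 in APAP_MSC against APAP (edgeR adjusted p = 0.739) and -0.69 ± 0.37 in APAP_HDF against APAP (0.643). In the GENCODE M21 annotation the antisense gene Gm48529 covers 62.4% of the exon bases of Tagln and had 32 to 89 counts per library. The protein-coding gene Pcsk7, on the opposite strand, covers 5.43% and had 1507 to 1845 counts per library. Since the use of strand in counting is not stated, reads of Tagln and of these genes over the shared bases cannot be told apart.

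**Figure D2:**
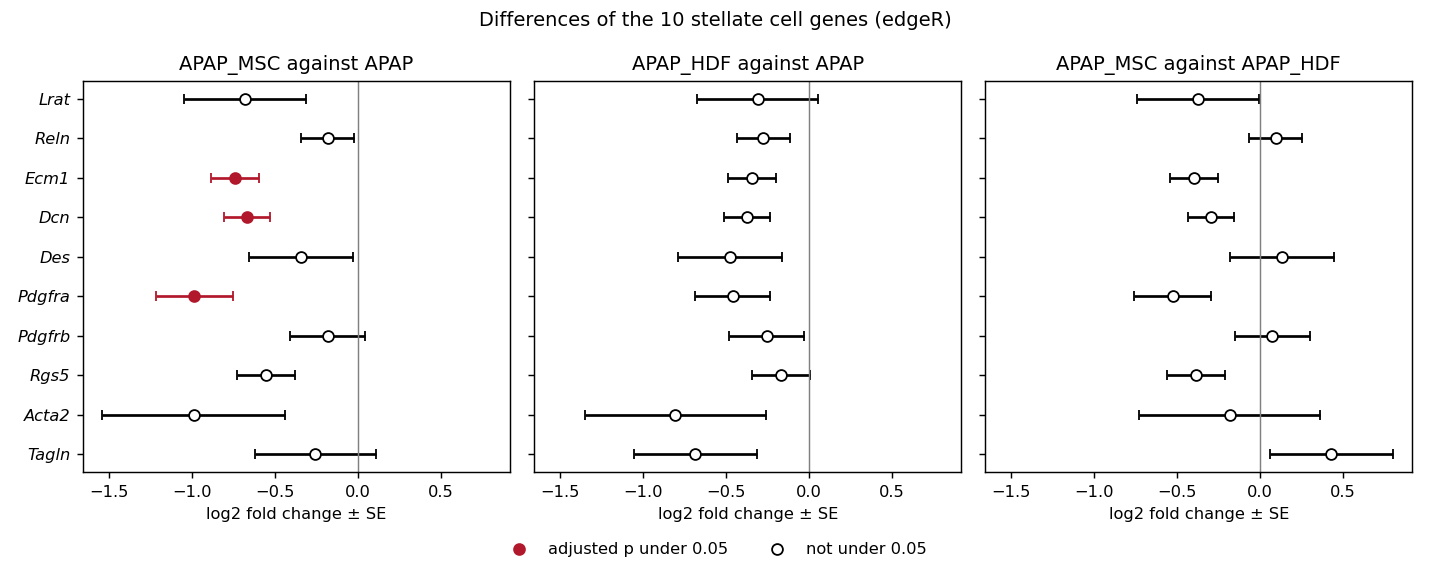
Log2 fold change with SE of the 10 stellate cell genes in the 3 comparisons, with filled red points for an edgeR adjusted p under 0.05. Ecm1, Dcn and Pdgfra are filled in APAP_MSC against APAP at -0.74, -0.67 and -0.99, and no point is filled in the other 2 comparisons.

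In APAP_HDF against APAP, 0 of the 10 genes passed the edgeR test, in a comparison in which 0% of the 17582 tested genes did. At an unadjusted p under 0.05 there were 2 members, Dcn and Ecm1, and 1458 genes in all, 8.29%. Counts of 0 members also came from limma-voom and from DESeq2, which called 83 of 16211 genes, 0.512%. All 10 log2 fold changes were negative, with a median of -0.36 against -0.0044 over all tested genes. The largest were those of Acta2 (-0.81 ± 0.55, edgeR adjusted p = 0.710), Tagln (-0.69 ± 0.37, 0.643), Des (-0.48 ± 0.31, 0.698) and Pdgfra (-0.46 ± 0.23, 0.620). Dcn had the smallest p (log2 fold change -0.37 ± 0.14, edgeR adjusted p = 0.575) and was the 1 member whose 3 APAP_HDF libraries all lay below the APAP libraries, as did 6.08% of tested genes, while 0 members and 5.66% of genes lay wholly above. APAP_MSC against APAP and APAP_HDF against APAP use the same 3 APAP libraries, so the shared sign of their fold changes is not independent.

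The direct comparison of APAP_MSC against APAP_HDF asks whether the injected cell type made a difference. Here 0 of the 10 genes passed the edgeR test, while 8.79% of all tested genes did, 4% as lower and 4.78% as higher. Counts of 0 members also came from limma-voom and from DESeq2, which called 15% of genes. Negative log2 fold changes were found for 6 of 10 genes, against 52.3% of all tested genes, and the median was -0.24, against -0.02 over all tested genes. At an unadjusted p under 0.05 there were 3 members, Ecm1 (-0.40 ± 0.14, edgeR adjusted p = 0.108), Pdgfra (-0.53 ± 0.23, 0.181) and Rgs5 (-0.39 ± 0.17, 0.191), and 4478 genes in all, 25.5%, so that the members' share was near the background. Without APAP_HDF library 3, Ecm1 passed with an edgeR adjusted p of 0.0340, the lowest of 15 alternatives, over which it reached 0.300. The fall of Ecm1, Dcn and Pdgfra in APAP_MSC against APAP is therefore not shown to be particular to MSC.

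Over the 3 groups at once, Ecm1 (edgeR joint test, adjusted p = 0.0287) and Dcn (0.0358) passed and Pdgfra did not (0.0576), with 6.79% of tested genes called. The order of the means was APAP_MSC, APAP_HDF and APAP from low to high for Lrat, Ecm1, Dcn, Pdgfra, Rgs5 and Acta2, and APAP_HDF, APAP_MSC and APAP for Reln, Des, Pdgfrb and Tagln. APAP had the highest mean for each of the 10 genes. No neighbouring pair in these orders passed the edgeR test.

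Compared per length, as CPM per kb of the merged exons in GENCODE M21, which is of an older build than the files and so approximate, Ecm1 led with means of 28.5 ± 1.48 in APAP_MSC, 37.5 ± 7.55 in APAP_HDF and 47.6 ± 5.46 in APAP. Dcn followed at 11.8 ± 1.07 CPM per kb in APAP_MSC, 14.5 ± 2.68 in APAP_HDF and 18.8 ± 1.72 in APAP, and Acta2 came next at 5.93 ± 1.93, 6.73 ± 3.50 and 11.8 ± 6.49 in the same groups. Rgs5 and Pdgfrb exchanged places between groups within their spread, with 5.91 ± 0.938 and 4.76 ± 1.01 CPM per kb in APAP. Des, Reln and Lrat lay between 1.20 and 2.82 CPM per kb in every group mean, and Pdgfra and Tagln were lowest, at 0.341 ± 0.0648 and 0.535 ± 0.0412 in APAP_MSC.

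Single libraries moved many of these genes together. APAP library 3 was the lowest of its group for 9 of the 10 genes, Ecm1 being the exception, and it was the lowest for 32.6% of all tested genes. APAP_HDF library 3 was likewise lowest of its group for 9 of 10, with Reln as the exception, against 32.9% of tested genes. In APAP_MSC the lowest library was spread, with 2, 2 and 6 genes over libraries 1, 2 and 3. APAP library 3 also had the highest macrophage and monocyte list level of the 9 libraries (a mean over genes of log2 CPM centred per gene), at 1.0, and APAP_HDF library 3 had a macrophage and monocyte level of -0.53. In both groups library 3 was the lowest for the endothelial, the pericyte and vascular smooth muscle and the smooth muscle contractile lists. These levels were -0.05, 0.01 and -0.02 in APAP library 3 and -0.18, -0.22 and -0.39 in APAP_HDF library 3. Other lists differed. For the list of other stellate cell genes, APAP library 3 was lowest (-0.0065), but APAP_HDF library 1 (-0.22) lay below library 3 (-0.13). The transforming growth factor beta list was lowest in APAP library 2 (0.24) and in APAP_HDF library 3 (-0.42). The part of these differences in the stellate cell results was not tested.

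**Figure D3:**
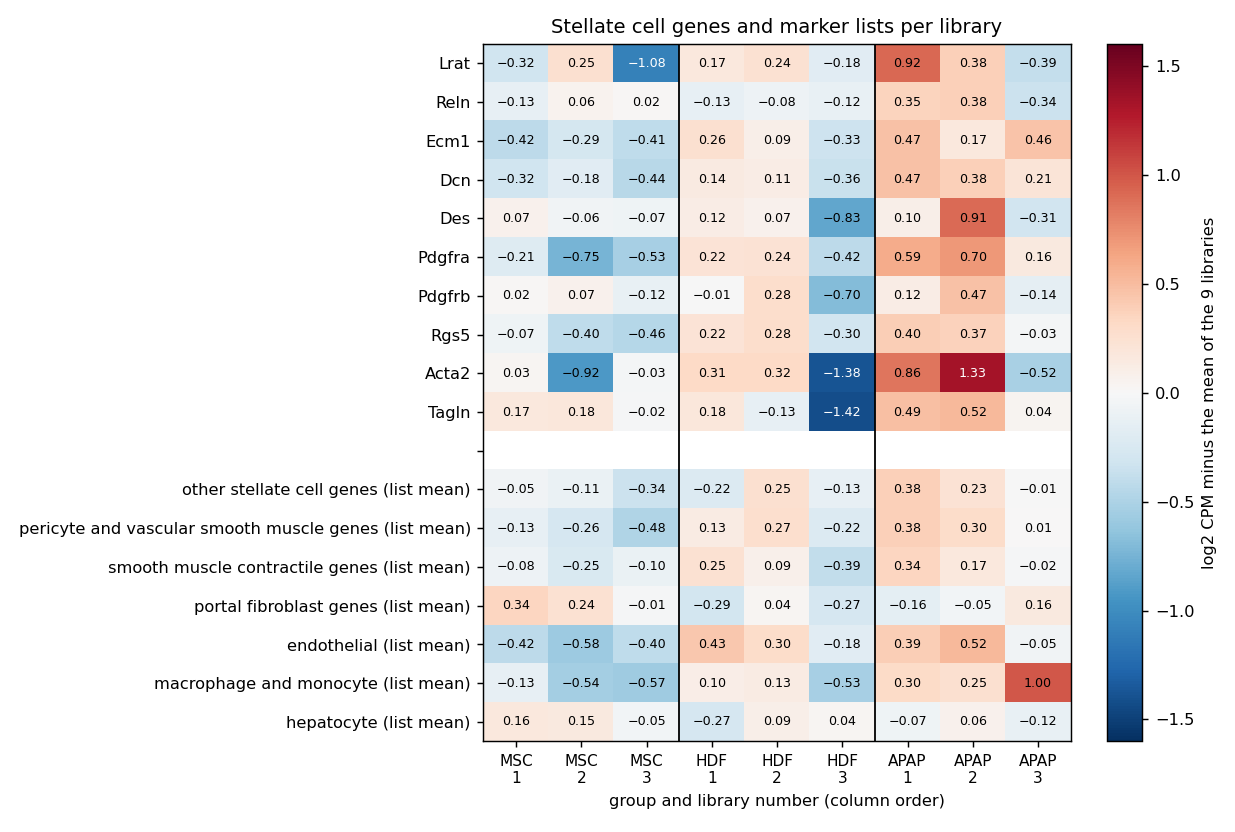
Log2 CPM centred per gene on its 9-library mean, as colour and number, for the 10 stellate cell genes (top) and as the mean over the genes of 7 marker lists (bottom), with APAP_MSC, APAP_HDF and APAP libraries 1 to 3 from left to right. Acta2 runs from -1.38 in APAP_HDF library 3 to 1.33 in APAP library 2, and the endothelial list is below 0 in all 3 APAP_MSC libraries.

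Genes whose pattern over the 9 libraries lay nearest to a member were found by the root mean square difference of centred log2 CPM among 13022 genes. For Tagln the nearest were Tpm2 (0.17), which encodes a tropomyosin, Myl9 (0.17), a myosin light chain, and Serpinh1 (0.17), a collagen chaperone. For Des they were Csrp1 (0.14), Fam129b (0.15) and Adgrg1 (0.16), and Pdgfrb, at 0.19, was the nearest member. For Pdgfrb they were Arhgef17 (0.12), Ddah2 (0.12) and Pcdh12 (0.13). For Pdgfra they were Zeb2 (0.12), a transcription factor, Man1c1 (0.13) and Stab1 (0.14), a scavenger receptor of sinusoidal endothelium, and the nearest member was Rgs5 at 0.20. The genes nearest to Lrat (5930430L01Rik, 0.21; Zfp951, 0.24; Akr1c18, 0.26) and to Acta2 (Maml2, 0.29; Gm10639, 0.33; Nes, 0.35) were further away. These likenesses are descriptions over libraries that also share their depth and group.

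Related genes were read from 9 lists with 105 genes, of which 103 were in the table and 94 were tested. In APAP_MSC against APAP 14 of the 94 were called, beside 6.19% of all tested genes. In APAP_HDF against APAP 0 were called, with 0 by DESeq2 and limma-voom and 12 at an unadjusted p under 0.05, beside 8.29% of all tested genes at that p. In APAP_MSC against APAP_HDF 17 were called, beside 8.79% of all tested genes. Of the 14 calls, those of Abcc9 and Smad7 held in each of the 9 fits that left out 1 library. The other 12 held in 2 to 7 of the 9, and every one was lost without at least 2 of the libraries APAP_MSC 1, 2 and 3, with a highest adjusted p per gene between 0.0771 and 0.175. Of the 17 calls in APAP_MSC against APAP_HDF, that of Smad7 held in all 9 fits and the others in 1 to 8. The others were lost without APAP_MSC library 2, except Stra6l, which was lost without APAP_MSC library 1, and the highest adjusted p among them was 0.186, for Hhip.

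Among 23 other genes of stellate cells, 2 fell and 0 rose in APAP_MSC against APAP, beside 3.51% and 2.68% of all tested genes. The median log2 fold change of the list was -0.19. The log2 fold change was negative for 14 and positive for 9 of its genes, and 9 lay wholly below and 2 wholly above APAP. Over all tested genes, 51.1% were negative, 14.7% lay wholly below and 13.7% wholly above. The list summed to 412 to 476 CPM in APAP_MSC, 369 to 524 CPM in APAP_HDF and 421 to 477 CPM in APAP. Cxcl12 alone had 260, 288 and 255 CPM in APAP_MSC and 225, 253 and 232 CPM in APAP. Hgf, the hepatocyte growth factor that stellate cells secrete, had 4.10, 3.74 and 3.65 CPM in APAP_MSC, 6.26, 6.94 and 3.17 CPM in APAP_HDF and 10.6, 9.37 and 5.61 CPM in APAP. Its APAP_MSC libraries lay below the APAP libraries (log2 fold change -1.15 ± 0.30, edgeR adjusted p = 0.0446). Gdf2, which encodes BMP9, a stellate cell ligand for endothelial receptors, had 6.26, 8.99 and 5.43 CPM in APAP_MSC, 7.55, 11.4 and 8.96 CPM in APAP_HDF and 13.7, 12.7 and 12.7 CPM in APAP. Both cell-injected groups lay below APAP, and the difference passed for APAP_MSC (-0.92 ± 0.20, edgeR adjusted p = 0.0254). The stellate cell transcription factors Hand2, Lhx2 and Tcf21 had log2 fold changes of -0.35, -0.80 and 0.11 with edgeR adjusted p of 0.421, 0.105 and 0.844. Hhip, a hedgehog antagonist, was lower in APAP_MSC than in APAP_HDF (-1.69 ± 0.46, edgeR adjusted p = 0.0447).

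Retinoid storage and signalling went the other way in part, with 3 of 16 tested genes higher and 1 lower in APAP_MSC against APAP. The shares of all tested genes were 2.68% higher and 3.51% lower. The median log2 fold change of the list was 0.18. Many genes of the list are also expressed by hepatocytes, so they do not mark stellate cells in whole liver. Pnpla3, a lipase that acts on retinyl esters and triglycerides, had 9.17, 8.63 and 1.85 CPM in APAP_MSC, 1.05, 1.01 and 0.797 CPM in APAP_HDF and 0.433, 1.08 and 0.679 CPM in APAP. APAP_MSC library 3 was far below the other APAP_MSC libraries but above all the rest (log2 fold change against APAP 3.16 ± 0.57, edgeR adjusted p = 0.0176). Dhrs3, which reduces retinal to retinol, averaged 124 ± 19.8 CPM in APAP_MSC, 61.4 ± 20.7 CPM in APAP_HDF and 58.2 ± 14.1 CPM in APAP (SD, n = 3; 1.09 ± 0.26 in APAP_MSC against APAP, edgeR adjusted p = 0.0417). Stra6l, a receptor for retinol-binding protein, rose by a log2 fold change of 0.67 ± 0.13 (edgeR adjusted p = 0.0178), and Bco1, which cleaves carotene to retinal, fell (-0.80 ± 0.20, 0.0426). Beside 4.78% and 4% of all tested genes, 5 genes of this list were higher and 1 lower in APAP_MSC against APAP_HDF. Among the higher were Cyp26a1, which breaks down retinoic acid (3.42 ± 0.70, edgeR adjusted p = 0.0211), and Aldh1a1, which makes it (1.03 ± 0.27, 0.0439). Cyp26b1, of the same list, had the opposite sign to Cyp26a1 without being called. Its APAP_MSC libraries had 0.923, 1.51 and 0.282 CPM, below all other libraries, the lowest of which had 2.22 CPM (APAP library 3). Against APAP its log2 fold change was -2.56 ± 0.73 (edgeR adjusted p = 0.0744), and that of Cyp26a1 was 1.64 ± 0.64 (0.168).

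Of the 4 ligands of the Pdgfra and Pdgfrb receptors, 0 were called in APAP_MSC against APAP by edgeR or DESeq2. At an unadjusted p under 0.05 there were 2, beside 22.6% of all tested genes. Pdgfc, an alpha receptor ligand, was higher in APAP_MSC than in APAP_HDF, with 6.33, 7.59 and 7.28 CPM in APAP_MSC against 1.38, 4.0 and 3.28 CPM in APAP_HDF (log2 fold change 1.29 ± 0.36, edgeR adjusted p = 0.0493). Pdgfd had a log2 fold change of 0.83 ± 0.29 in the same comparison (0.0962).

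Of 14 tested smooth muscle contractile genes, 2 fell and 0 rose in APAP_MSC against APAP, beside 3.51% and 2.68% of all tested genes. The median log2 fold change of the list was -0.31. The genes that fell were Tpm1, a tropomyosin (-0.76 ± 0.14, edgeR adjusted p = 0.0167), and Vcl, vinculin of cell adhesions (-0.72 ± 0.17, 0.0331). Both are expressed well beyond muscle. Myh11, the myosin heavy chain that marks smooth muscle, had a log2 fold change of 0.21 ± 0.37 (0.795). In APAP_MSC against APAP_HDF, Tpm1, Vcl and Actn1, an alpha-actinin, were lower (-0.52, -0.85 and -0.75, with edgeR adjusted p of 0.0454, 0.0133 and 0.0325). The median over 9 tested pericyte and vascular smooth muscle genes was -0.58 in APAP_MSC against APAP. Of these genes 1 fell, beside 3.51% of all tested genes. It was Abcc9, the regulatory subunit of a potassium channel of mural cells, with 14.1, 13.4 and 13.1 CPM in APAP_MSC, 22.7, 20.7 and 18.2 CPM in APAP_HDF and 25.1, 24.2 and 21.4 CPM in APAP. Its APAP_MSC libraries lay below all 6 others (-0.80 ± 0.11 against APAP, edgeR adjusted p = 0.00555, and -0.60 ± 0.11 against APAP_HDF, 0.00989). Kcnj8, the pore of the same channel, had a log2 fold change of -0.72 ± 0.29 against APAP (0.163).

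Of 9 tested portal fibroblast genes, 1 rose in APAP_MSC against APAP and 0 fell, with a median of 0.17. It was Gas6, a ligand of TAM receptors that is not restricted to fibroblasts (0.80 ± 0.18, edgeR adjusted p = 0.0305). Dpt, dermatopontin, was higher in APAP_MSC than in APAP_HDF (1.33 ± 0.28, edgeR adjusted p = 0.0170).

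The median log2 fold change of 12 genes of the transforming growth factor beta axis in APAP_MSC against APAP was -0.66. Of these 12 genes 3 fell and 0 rose, beside 3.51% and 2.68% of all tested genes. Smad7, the pathway's own inhibitor and a target of it, had 12.6, 10.4 and 14.6 CPM in APAP_MSC, 25.4, 24.3 and 28.3 CPM in APAP_HDF and 24.3, 25.7 and 26.2 CPM in APAP. The APAP_MSC libraries were well below the other 6 (-1.02 ± 0.13 against APAP, edgeR adjusted p = 0.00350, and -1.05 ± 0.13 against APAP_HDF, 0.00155). The receptors Tgfbr2 (-0.94 ± 0.17, edgeR adjusted p = 0.0147) and Tgfbr3 (-0.72 ± 0.18, 0.0414) were the other 2. Tgfbr1, a receptor of the pathway, was lower in APAP_MSC than in APAP_HDF (-0.58 ± 0.16, edgeR adjusted p = 0.0434). The ligand genes Tgfb1, Tgfb2 and Tgfb3 had log2 fold changes of -0.61, 0.30 and -0.12 in APAP_MSC against APAP (0.0814, 0.775 and 0.911). Of the 3 reelin pathway genes, the receptor gene Lrp8 fell in APAP_MSC against APAP (-1.32 ± 0.29, edgeR adjusted p = 0.0261) and the receptor gene Vldlr had 1.59 ± 0.50 (0.0846).

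**Figure D4:**
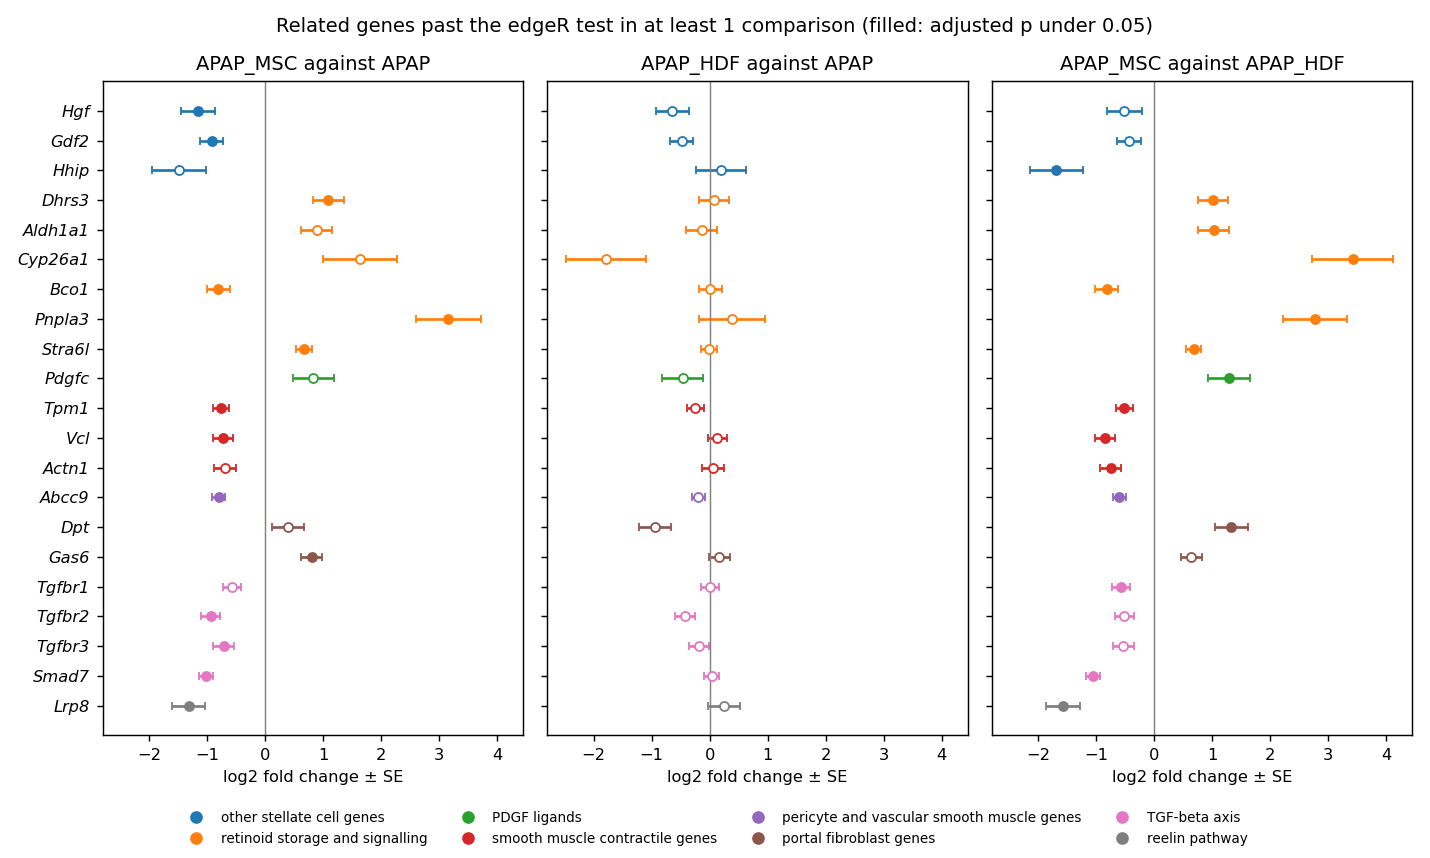
Log2 fold change with SE of 21 related genes that passed the edgeR test in at least 1 comparison, coloured by list and filled where the adjusted p is under 0.05. Smad7, Abcc9 and Lrp8 are filled on the negative side and Pnpla3, Dhrs3 and Stra6l on the positive side in both comparisons with APAP_MSC, and no point is filled in APAP_HDF against APAP.

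Markers of other cell types moved in the same comparison, and their part in the results above was not tested. In APAP_MSC against APAP, 3.51% of all tested genes were called as lower and 2.68% as higher. Of 10 endothelial markers, 3 fell and 0 rose in APAP_MSC against APAP (Lyve1, Tek and Eng, median -0.75), and the list summed to 159 to 176 CPM in APAP_MSC, 197 to 305 CPM in APAP_HDF and 215 to 326 CPM in APAP. Of 10 macrophage and monocyte markers, 3 fell and 0 rose (Cd68, Ly6c2 and Itgam, median -0.88), with summed levels of 81.9 to 117 CPM in APAP_MSC, 97.6 to 140 CPM in APAP_HDF and 147 to 222 CPM in APAP. All 3 tested neutrophil markers (S100a8, S100a9 and Retnlg) fell, and the neutrophil list summed to 1.17 to 1.72 CPM in APAP_MSC, 1.49 to 4.97 CPM in APAP_HDF and 4.97 to 6.68 CPM in APAP. Of 5 lymphatic endothelial markers, 2 fell (Prox1, which hepatocytes also express, and Flt4). No marker of hepatocytes, cholangiocytes, T and B cells, mesothelium, skeletal muscle or nerve was called in this comparison by edgeR. At an unadjusted p under 0.05 there were 2 hepatocyte and 2 cholangiocyte markers, beside 22.6% of all tested genes. Of the calls on these markers, that of Cd68 held in all 9 fits that left out 1 library, and each of the others was lost without APAP_MSC library 2 and without APAP_MSC library 3, held in 2 to 7 of the 9 fits and reached a highest adjusted p of 0.0992 to 0.169. In APAP_MSC against APAP_HDF, 3 of 5 cholangiocyte markers (Krt19, Epcam and Spp1) were higher, beside 4.78% of all tested genes. Lower were 2 endothelial (Lyve1 and Eng), 1 lymphatic (Flt4), 1 macrophage (Cd68) and 1 neutrophil (Retnlg) marker, beside 4% of all tested genes. Of these marker calls that of Cd68 held without each library in turn, while the others were lost without APAP_MSC library 2. The skeletal muscle list summed to 0.904 to 1.64 CPM in APAP_MSC, 0.755 to 1.32 CPM in APAP_HDF and 0.859 to 1.46 CPM in APAP, and the mesothelial list to 0.916 to 2.88, 2.26 to 2.99 and 0.952 to 4.31 CPM in the same groups.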

How the data were processed

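Poly(A) RNA libraries were made from pieces of whole liver with TRIZOL and the Tecan universal plus mRNA-seq kit, per the labels' protocols. HISAT2, Subread and DESeq2 and the builds mm39 and GRCm39 are named in the submitters' processing notes, without versions, and the use of strand is not given in the sources used here. The authors deposited raw read counts for 28956 gene symbols in 9 columns, whose headers give the group but no replicate number; the deposited normalized table was not used. From the counts, edgeR 4.0.16 (R 4.3.3) kept 17582 genes with filterByExpr, holding 99.97% of counts, and scaled libraries by TMM (factors 0.934 to 1.11). One quasi-likelihood fit (robust) covered the 9 libraries with a term for group, and a gene was called at a two-sided Benjamini-Hochberg adjusted p under 0.05 over all tested genes. The SE is the log2 fold change over the root of its F. DESeq2 1.42.0, voom of limma 3.58.1, another scaling, 2 other filters, fits of 2 groups and fits without 1 library were the alternatives. Replicates of a group differed beyond sampling noise (median chi-square 3.07 to 8.28 over genes, 0.455 by chance). The steps were tested on simulated data. Genes named are all members, each list gene called in a comparison (1 is counted in its list but not reported here), the 2 list genes with the smallest joint p, and the 3 nearest genes of members spanning at least 1 on the log2 scale; further values given beside them were chosen after being seen. Of the 10 genes, 7 had their promoter searched. Pdgfrb was left out of this search, and the RefSeq table had no entry for Tagln or Dcn. The genes and lists were chosen with earlier results of these data known.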

Additional observations from a re-analysis of the deposited data

How the results depend on the processing

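The count of called stellate cell genes in APAP_MSC against APAP was 3 with edgeR and 3 or 4 under the 6 alternatives that keep all libraries. It ranged from 0 to 3 when 1 library was left out, being 0 without APAP library 1 or any APAP_MSC library and 1 without APAP library 2. It was 0 in APAP_HDF against APAP in every fit run, in APAP_MSC against APAP_HDF 0 to 1, and in the joint test, 2 in the full fit, 0 to 3. Of 590 member values under alternatives, 550 kept direction and call, 25 lost a call, 7 gained one and 8 changed sign without being called. The changes of sign came from leaving out 1 library, over which the log2 fold change ranged from -0.598 to 0.0499 for Lrat in APAP_HDF against APAP (highest without APAP 1), from -0.579 to 0.0810 for Des and from -0.313 to 0.00226 for Pdgfrb in APAP_MSC against APAP (highest without APAP 2). In APAP_MSC against APAP_HDF it ranged from -0.548 to 0.0752 for Acta2 (above 0 without APAP_MSC 2, APAP_HDF 1 or APAP_HDF 2), from -0.10 to 0.300 for Des and from -0.14 to 0.299 for Pdgfrb (below 0 without APAP_HDF 3). Called related genes numbered 14 in APAP_MSC against APAP, 28 by DESeq2, 25 with only the 2 groups fitted and 3 to 24 without 1 library. They numbered 17 in APAP_MSC against APAP_HDF, 26 by DESeq2, 11 with no filter and 2 to 17 without 1 library. In the joint test they numbered 14, 30 by DESeq2 and 1 to 17 without 1 library. DESeq2 called 11.7% of all genes in APAP_MSC against APAP, 15% in APAP_MSC against APAP_HDF and 15.6% jointly. Over all genes, edgeR and DESeq2 called 1088 and 2050 in APAP_MSC against APAP, 0 and 83 in APAP_HDF against APAP, 1545 and 2531 in APAP_MSC against APAP_HDF and 1193 and 2738 jointly, and without 1 library edgeR called 87 to 1676, 0 to 31, 324 to 1730 and 117 to 1528. The cause of these shifts was not tested. No paired analysis was possible because the columns carry no replicate numbers. Depth limits Tagln most, at 19 to 77 counts per library.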
